A study of Rattus norvegicus with 15 samples.

Results

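The genes of the proteasome, the protease complex that breaks down ubiquitin-tagged proteins, were followed in RNA sequencing of rat multifidus muscle. They were taken as every gene whose symbol names a proteasome alpha, beta, ATPase or non-ATPase subunit (Psma, Psmb, Psmc or Psmd with a number), without the inducible immunoproteasome subunits Psmb8, Psmb9 and Psmb10, and with a mean count of at least 10 over the 15 libraries. Of the 37991 genes measured, 36 symbols fitted this pattern and 34 were kept. The testis subunit Psma8 had 0 counts in every library and the thymus subunit Psmb11 a mean count of 0.467, and both were left out. The 34 comprised 7 alpha ring genes, 7 beta ring genes, 6 ATPases, 3 non-ATPase base subunits, 8 lid subunits and 3 assembly chaperones. All 34 were among the 17201 genes with enough counts to be tested.

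All libraries came from the multifidus, a deep muscle along the spine, of wild type rats. Per the study's methods these were male Sprague Dawley rats 12 weeks old. The surgery was unilateral, with lumbar bone removed and a spinal nerve tied off and, per the study's supplement, cut. Control (2 libraries) had no surgery, and Surgery (2 libraries) had it with no treatment afterwards. The pMT group (4 libraries) had the surgery and received mitochondria isolated from human blood plasma, at 25 μg in 100 μL per site and 50 μg in all, into the left paraspinal muscle 2 weeks after surgery, and tissue was taken 2 weeks later. The pMT/VitD group (4 libraries) received the same dose of pMT with cholecalciferol, the precursor of active vitamin D, at 150 μg per site and 300 μg in all. The VitD group (3 libraries) received this dose of cholecalciferol alone. For both groups with cholecalciferol, the surgery and its timing are not stated in the sources used here. Nothing states that libraries of a group came from separate rats, so the p-values measure the spread between these libraries.

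The 26S proteasome is built from a 20S core and a 19S cap. In the core, rings of alpha subunits gate the entrance and rings of beta subunits hold the active sites, carried by Psmb5, Psmb6 and Psmb7. In the cap, the base has a ring of ATPases that unfold substrates and the receptor Psmd4 that binds ubiquitin chains, while the lid holds Psmd14, which removes the chains. In skeletal muscle the complex degrades contractile proteins during atrophy, and transcription of its genes is raised by the factor Nfe2l1 when proteasome activity falls short.

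Promoter sequences of RefSeq (build GRCr8, which is not the rn6 build the authors aligned to), each spanning 250 bases before to 50 bases after the annotated start, were matched by gene identifier for 30 of the 34 genes. There was no entry for Psma7, Psmd6, Psmd12 and Psmd14. Both strands were searched for the CCAAT box (CCAAT), the site of the factor NF-Y, and for the core of the antioxidant response element (TGACNNNGC), to which Nfe2l1 and Nfe2l2 bind. The CCAAT box was found in 16 of the 30 promoters (53.3%) and in 37.7% of the 27457 promoters of this length. The antioxidant response element core was found in 7 of the 30 (23.3%) and in 12.2% of all. Both were found in 3 of the 30 and in 4.4% of all promoters. The promoters shown are those of 4 of the 5 genes that passed the test in the comparison of pMT/VitD with VitD, the only comparison with any call. Psmd4 lies at chr2:185297152-185297451, minus strand, Psmb6 at chr10:55737638-55737937, plus strand, Psmb2 at chr5:144254808-144255107, plus strand and Psmd3 at chr10:84139688-84139987, plus strand. Each is written 5′ to 3′ with the letters of either motif in capitals.
Psmd4: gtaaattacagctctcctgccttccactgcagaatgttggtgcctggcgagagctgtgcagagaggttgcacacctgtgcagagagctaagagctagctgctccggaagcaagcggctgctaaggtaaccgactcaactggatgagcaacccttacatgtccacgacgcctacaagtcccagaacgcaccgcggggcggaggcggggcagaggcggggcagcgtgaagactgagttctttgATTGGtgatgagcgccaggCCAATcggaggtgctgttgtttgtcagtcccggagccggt
Psmb6: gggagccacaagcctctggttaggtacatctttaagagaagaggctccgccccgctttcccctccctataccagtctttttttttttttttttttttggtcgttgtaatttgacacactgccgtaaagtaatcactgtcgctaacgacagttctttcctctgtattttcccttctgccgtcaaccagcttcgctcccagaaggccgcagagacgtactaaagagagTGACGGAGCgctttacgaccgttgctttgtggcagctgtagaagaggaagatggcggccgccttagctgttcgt
Psmb2: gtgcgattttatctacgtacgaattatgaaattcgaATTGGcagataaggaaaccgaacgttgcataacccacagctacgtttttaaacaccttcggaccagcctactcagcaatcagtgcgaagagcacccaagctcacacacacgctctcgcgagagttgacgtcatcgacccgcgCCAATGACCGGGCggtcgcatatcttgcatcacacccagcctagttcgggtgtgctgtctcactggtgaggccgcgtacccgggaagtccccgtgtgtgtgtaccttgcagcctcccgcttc
Psmd3: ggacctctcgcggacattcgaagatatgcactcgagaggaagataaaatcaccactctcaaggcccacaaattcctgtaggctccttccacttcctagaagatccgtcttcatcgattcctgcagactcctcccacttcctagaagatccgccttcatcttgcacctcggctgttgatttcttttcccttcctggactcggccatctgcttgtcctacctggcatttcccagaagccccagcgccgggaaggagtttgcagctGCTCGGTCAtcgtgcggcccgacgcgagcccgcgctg
Psmd4 held 2 CCAAT boxes on opposite strands close to the start and no antioxidant response element core. Psmb6 and Psmd3 held 1 antioxidant response element core each and no CCAAT box. Psmb2 held 2 CCAAT boxes and 1 antioxidant response element core, which shared bases with one of the boxes. A match is a match of letters in this window and shows no binding.

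Total counts were 52342134 to 73557878 per library, and the 34 genes took 0.340% to 0.427% of them. Levels are given as CPM (counts scaled to a common library total) after TMM scaling, which sets libraries to a common level for most genes. Mitochondrial genome transcripts took 10.7% to 22.6% of counts. A pair of libraries stood apart from their groups. Over genes with a mean of at least 4 log2 CPM, the SD of the log2 ratio between pMT 4 and the other pMT libraries was 0.35 to 0.53, against 0.18 to 0.31 between pMT 4 and pMT/VitD 1 to 3. Between pMT/VitD 4 and the other pMT/VitD libraries it was 0.37 to 0.47, against 0.20 to 0.26 to pMT 1 to 3. Groups were kept as labelled, and counts of calls are given below with and without both libraries. Libraries also differed by a trend with gene length. The rank correlation between gene length and a gene's deviation from its own mean, over all tested genes, was -0.39, -0.39, -0.17 and 0.15 in pMT/VitD 1 to 4 and 0.02, 0.36, 0.45 and -0.32 in pMT 1 to 4. In the other 7 libraries it lay between -0.03 and 0.29. A negative value means that short genes were relatively high, and proteasome genes are mostly short.

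The mean log2 CPM of the 34 genes was highest in pMT/VitD 1 to 3 and in pMT 4, and lowest in pMT 3. It was 6.44 and 6.45 in Control 1 and 2, 6.37 and 6.36 in Surgery 1 and 2, and 6.43, 6.38 and 6.35 in VitD 1 to 3. In pMT 1 to 4 it was 6.50, 6.42, 6.27 and 6.70, and in pMT/VitD 1 to 4 it was 6.75, 6.72, 6.57 and 6.36. The pMT and pMT/VitD groups thus overlapped each other and the other 3 groups, whose libraries lay close together. The mean went down as the length trend went up (Pearson r = -0.92 over the 15 libraries, a description, since both come from the same libraries). After the trend was subtracted from every gene, the mean was 6.43 and 6.47 in Control, 6.36 and 6.37 in Surgery, and 6.40, 6.41 and 6.41 in VitD. It was then 6.51, 6.49, 6.44 and 6.57 in pMT and 6.60, 6.55, 6.50 and 6.42 in pMT/VitD. The spread within pMT fell from an SD of 0.18 to 0.051 and within pMT/VitD from 0.18 to 0.076 (n = 4 each). Both surgery libraries then lay below every library of the other 4 groups, an order that depended on the scaling, as given further below.

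**Figure D1:**
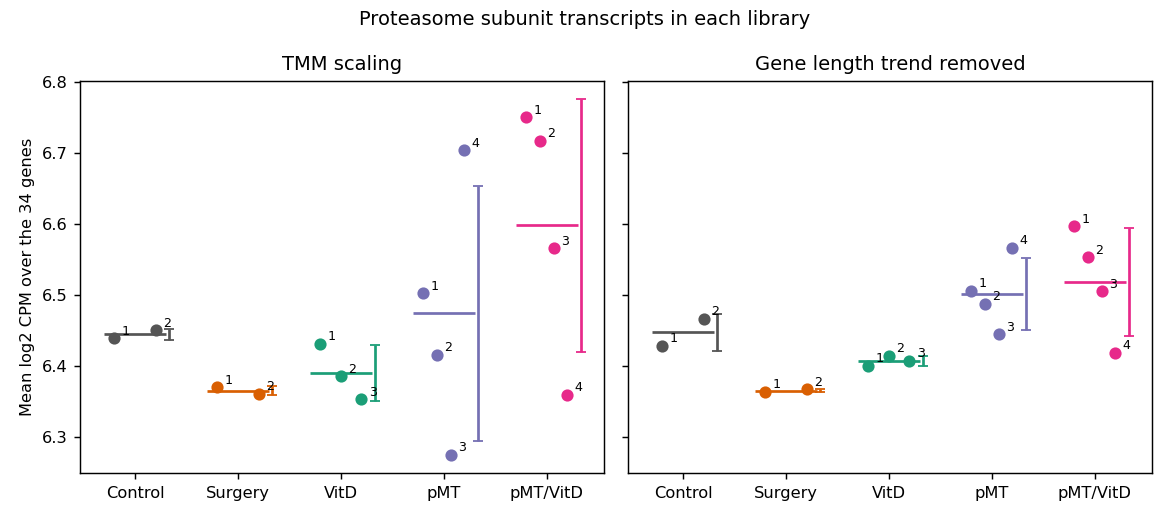
Mean log2 CPM over the 34 proteasome genes in each library (numbered points), with the group mean (line) and SD (bar beside it), under TMM scaling (left) and with the gene length trend removed (right). The pMT and pMT/VitD libraries spread from 6.27 to 6.75 on the left and from 6.42 to 6.60 on the right.

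**Figure D2:**
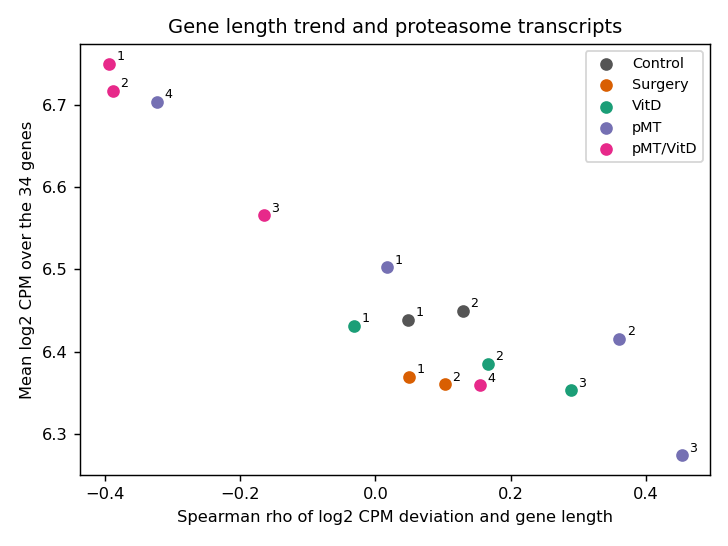
Mean log2 CPM over the 34 genes (vertical) against each library's rank correlation between gene length and the deviation of log2 CPM (horizontal), with replicate numbers beside the points. The libraries with the most negative length trend, pMT/VitD 1 and 2 and pMT 4, have the highest mean.

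Markers of some cell types moved between the same groups. The summed level of 10 skeletal muscle genes was 192603 to 208636 CPM in Control, 163358 to 167024 in Surgery, 130620.0 to 173372 in VitD, 169636 to 188706 in pMT and 197305 to 225640.0 in pMT/VitD, so the tissue carried its defining transcripts in every library. That of 10 macrophage genes was 306 to 323, 599.7 to 607, 514 to 803, 258 to 339.8 and 237 to 345 CPM in the same order. That of 6 fibroblast genes was 2633 to 2657, 4638 to 4667, 3869 to 7383, 2595 to 3067 and 1948 to 2853 CPM, and that of 5 red blood cell genes 559 to 611, 389 to 398, 302 to 609.9, 566 to 1089 and 499 to 1250.0 CPM. Between pMT/VitD and VitD, 10 of the 10 macrophage and 5 of the 6 fibroblast genes were lower and 4 of the 10 muscle and 4 of the 5 red blood cell genes higher at an adjusted p under 0.05. With pMT 4 and pMT/VitD 4 left out these were 10 of 10, 6 of 6, 6 of 10 and 4 of 5 in turn. With all libraries, 2 of the 10 muscle genes had fold changes below 0 in this comparison. Not every list moved this much. The summed level of 6 endothelial genes averaged 284, 281 and 286 CPM in Control, Surgery and VitD, 320 in pMT and 270 in pMT/VitD. The part of cell types in the proteasome values was not tested. In whole tissue, fewer cells of a type and less RNA per cell cannot be told apart.

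Compared per length, as the authors' TPM, the 7 most abundant were core genes. The mean over the 15 libraries was 352 TPM for Psmb1, 263 for Psma6, 258 for Psmb7, 246 for Psma7 and 245 for Psmb6. The ATPases Psmc2, Psmc1 and Psmc5 came next, above the other 7 core genes, which lay between 71.97 TPM (Psma3) and 122 TPM (Psmb3). The ATPases lay between 52.2 TPM (Psmc6) and 140.2 TPM (Psmc2), and the lid genes between 39.4 TPM (Psmd11) and 112 TPM (Psmd12). The assembly chaperones were far lower, at 12.04 TPM for Psmd5, 10.9 for Psmd9 and 7.43 for Psmd10. Most genes went up and down together. The Pearson correlation of a gene's log2 CPM with the mean of the other 33, over the 15 libraries and with no p since libraries share scaling and length trend, was highest for Psmb4 and Psma3 (0.97 each). It was lower for the long genes Psmd11 (0.36), Psmd2 (0.34) and Psmd1 (0.45), for Psmd10 (0.36), and negative for Psmd5 (-0.54). The GRCr8 annotation lists 10 pseudogenes or like genes named after Psmb3, 5 after Psma6, 3 after Psma7 and 3 after Psmb6. Those of Psmb6 had a mean count of 2.55% of that of the gene itself, and reads shared between such copies leave the values uncertain.

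**Figure D3:**
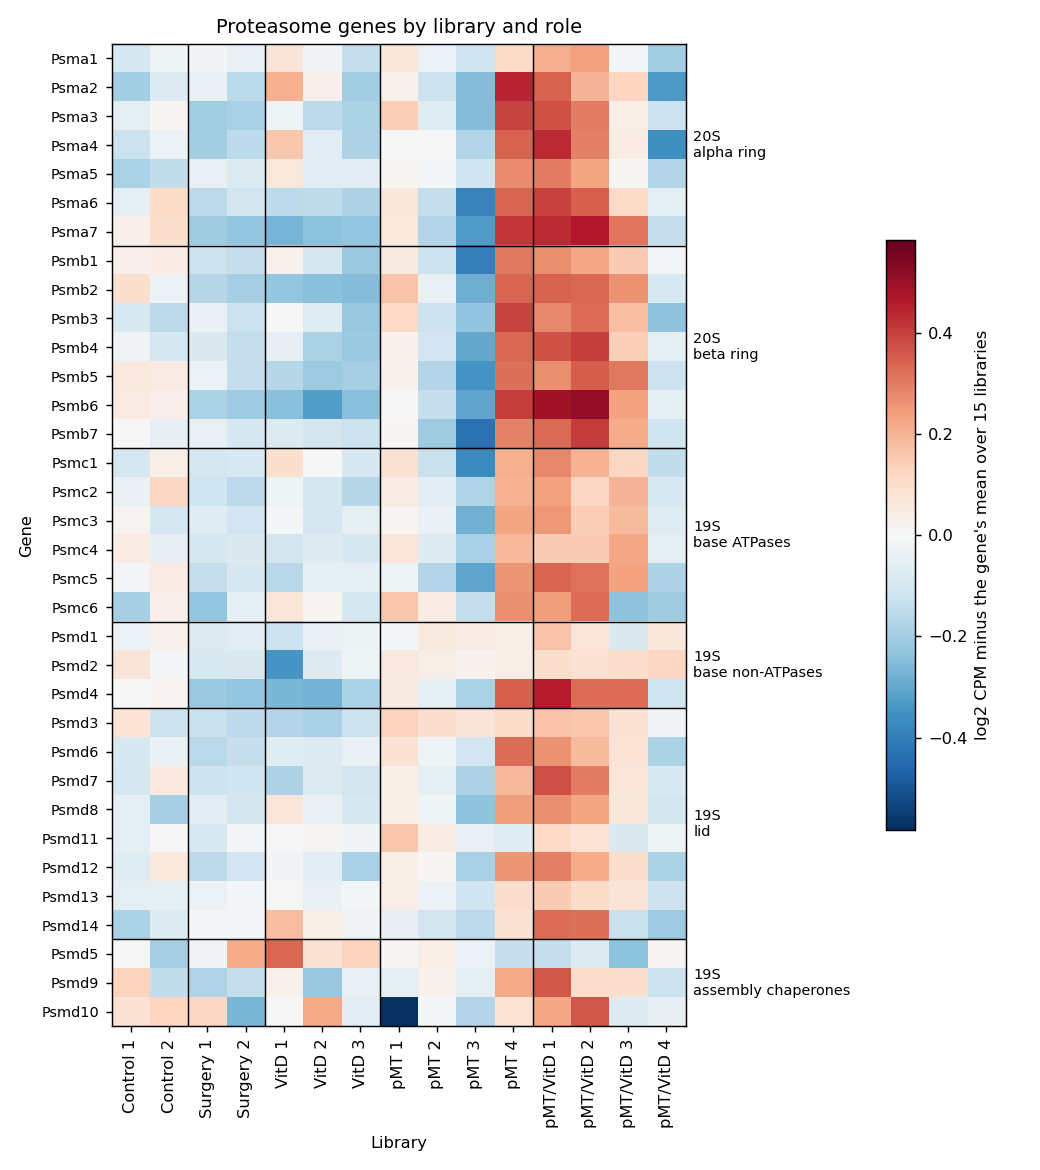
Log2 CPM of the 34 genes (rows, by role) in the 15 libraries (columns, by group), each minus the gene's mean over all libraries. The columns of pMT/VitD 1 and 2 and of pMT 4 are higher (red) for most rows, with Psmd5 as an exception.

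Any difference among the 5 groups was asked first, with edgeR's quasi-likelihood F-test on the counts of all 15 libraries. A gene is called at a Benjamini-Hochberg adjusted p under 0.05 over all genes tested. Shares of all genes are those of this test on all 15 libraries unless another tool or fit is named. Where another tool or fit called none of the 34, its share is not given here. None of the 34 genes was called, against 11.8% of all genes. At an unadjusted p under 0.05 there were 5 (Psmd4, Psmd3, Psmb6, Psmb2 and Psma7), or 14.7% of the 34, against 26.2% of all genes. The smallest adjusted p was 0.10, for Psmd4. Other tools called 4 (DESeq2) and 28 (limma voom with quality weights), where 21.6% and 66.7% of all genes were called. Leaving out pMT 4 or pMT/VitD 4 alone gave 2 calls each, Psmb6 and Psmd4, beside 15.7% and 16% of all genes.

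In the alpha ring, which forms the gate of the core, the genes with the smallest p were Psma7 and Psma6. Psma7 had 170.1 and 177 CPM in Control 1 and 2, 144 and 142 in Surgery 1 and 2, 138, 141 and 142 in VitD 1 to 3, 174, 148, 132 and 221 in pMT 1 to 4 and 225, 229.8, 207 and 151 in pMT/VitD 1 to 4. The libraries pMT 4 and pMT/VitD 1 to 3 lay above all others, and the surgery and VitD libraries lay below both controls. Such separation was common with so few libraries. Both surgery libraries lay below both controls for 18 of the 34 genes and above them for 3, against 34.4% and 31.7% of all genes. All VitD libraries lay below both controls for 12 of the 34 and above them for 4, against 27.1% and 25.0% of all genes. Psma6 had 182 and 203 CPM in Control 1 and 2, 169.5 and 175 in Surgery 1 and 2, 169.7, 170.3 and 166 in VitD 1 to 3, 197, 171, 144 and 239 in pMT 1 to 4 and 248, 239.9, 204 and 182 in pMT/VitD 1 to 4. Here pMT 4 and pMT/VitD 1 and 2 were the highest and pMT 3 was the lowest of all. Psma4 and Psma5, the alpha ring genes with the smallest p in another comparison, are given in full as well. Psma4 had 76.7 and 81.7 CPM in Control 1 and 2, 73.00 and 75.2 in Surgery 1 and 2, 93.2, 79.9 and 73.9 in VitD 1 to 3, 83.9, 83.9, 74.3 and 106 in pMT 1 to 4 and 113, 103, 86.1 and 65.3 in pMT/VitD 1 to 4. Psma5 had 59.2 and 61.03 CPM in Control 1 and 2, 65.4 and 63.8 in Surgery 1 and 2, 70.3, 64.5 and 64.4 in VitD 1 to 3, 67.8, 66.8, 62.1 and 81.5 in pMT 1 to 4 and 82.7, 78.9, 67.7 and 59.8 in pMT/VitD 1 to 4. For Psma4 the lowest library was pMT/VitD 4 and the highest pMT/VitD 1, so that group spanned every other. For Psma5 both controls were among the 3 lowest libraries. Psma1, Psma2 and Psma3 varied 1.36-fold, 1.71-fold and 1.56-fold between their lowest and highest library.

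In the beta ring the catalytic subunits followed a similar order of libraries. Psmb6 had 145 and 143 CPM in Control 1 and 2, 123 and 121 in Surgery 1 and 2, 118, 112 and 118 in VitD 1 to 3, 139.8, 128, 113 and 185 in pMT 1 to 4 and 197, 199.8, 165 and 135 in pMT/VitD 1 to 4. Psmb6 carries the caspase-like site, and every surgery and VitD library was below both controls. Psmb5 had 133 and 132 CPM in Control 1 and 2, 125 and 116 in Surgery 1 and 2, 114, 111 and 112 in VitD 1 to 3, 129.9, 114, 101 and 159.6 in pMT 1 to 4 and 155, 163, 159 and 118 in pMT/VitD 1 to 4. Psmb5 carries the chymotrypsin-like site. Psmb7 had 187 and 180.2 CPM in Control 1 and 2, 181 and 174 in Surgery 1 and 2, 176, 173 and 171 in VitD 1 to 3, 188, 161, 138 and 228 in pMT 1 to 4 and 235, 247, 217 and 172 in pMT/VitD 1 to 4. Psmb7 carries the trypsin-like site, and its surgery and VitD libraries were near the control values. For all 3 catalytic genes, pMT 4 and pMT/VitD 1 to 3 were the highest libraries and pMT 3 was at or near the bottom. Psmb2 had 65.3 and 59.9 CPM in Control 1 and 2, 54.7 and 53.6 in Surgery 1 and 2, 52.5, 51.8 and 51.4 in VitD 1 to 3, 68.7, 59.4, 50.3 and 77.4 in pMT 1 to 4 and 77.9, 77.3, 73.4 and 57.6 in pMT/VitD 1 to 4. Psmb2, a structural beta subunit with no active site, had every surgery and VitD library below both controls. Psmb1, Psmb3 and Psmb4, also without active sites, varied 1.63-fold, 1.54-fold and 1.62-fold between their lowest and highest library.

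Among the ATPases of the base, Psmc5 and Psmc2 had the smallest p. Psmc5 had 127 and 132 CPM in Control 1 and 2, 116 and 119.6 in Surgery 1 and 2, 114, 123 and 123 in VitD 1 to 3, 125, 113, 103 and 153 in pMT 1 to 4 and 161, 159, 149.9 and 112 in pMT/VitD 1 to 4. Psmc2 had 142 and 159 CPM in Control 1 and 2, 135 and 132 in Surgery 1 and 2, 143, 137 and 130.1 in VitD 1 to 3, 151, 139, 129 and 168 in pMT 1 to 4 and 172, 159, 167 and 137 in pMT/VitD 1 to 4. Both were highest in pMT/VitD 1 and lowest in pMT 3, and the pMT and pMT/VitD ranges overlapped. Psmc1, Psmc3, Psmc4 and Psmc6 varied 1.33-fold (Psmc4) to 1.57-fold (Psmc1) over the 15 libraries. Of the non-ATPase base subunits, the ubiquitin receptor Psmd4 had the smallest p of all 34. Psmd4 had 108 and 109 CPM in Control 1 and 2, 92.5 and 91.8 in Surgery 1 and 2, 89.4, 88.7 and 94.6 in VitD 1 to 3, 112, 104, 94.5 and 137 in pMT 1 to 4 and 147, 135, 135 and 99.1 in pMT/VitD 1 to 4. Every surgery and VitD library was below both controls, and pMT/VitD 1 to 3, pMT 1 and pMT 4 were above them. Psmd2 had 228 and 215 CPM in Control 1 and 2, 204 and 204 in Surgery 1 and 2, 171, 205 and 213 in VitD 1 to 3, 225, 223, 219.8 and 223 in pMT 1 to 4 and 231, 229, 232 and 236 in pMT/VitD 1 to 4. Psmd2, a large scaffold protein that docks ubiquitin shuttles, was lowest in VitD 1, and all 4 pMT/VitD libraries lay above every other library, by a small margin. The other scaffold, Psmd1, varied 1.22-fold.

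In the lid, Psmd3 and Psmd7 had the smallest p. Psmd3 had 107 and 92.8 CPM in Control 1 and 2, 92.2 and 90.7 in Surgery 1 and 2, 89.7, 88.6 and 92.4 in VitD 1 to 3, 110.4, 108, 106 and 109 in pMT 1 to 4 and 113, 113, 107 and 99.9 in pMT/VitD 1 to 4. Psmd3, a scaffold of the lid, showed 4 pMT libraries that lay close together, all above the surgery and VitD libraries. Psmd7 had 112 and 126 CPM in Control 1 and 2, 111 and 111 in Surgery 1 and 2, 106, 114 and 112 in VitD 1 to 3, 123, 116, 106 and 137 in pMT 1 to 4 and 156, 149, 127 and 113 in pMT/VitD 1 to 4. Psmd7 is the inactive partner of the deubiquitinase Psmd14. Psmd14 had 45.99 and 49.5 CPM in Control 1 and 2, 51.9 and 51.9 in Surgery 1 and 2, 59.1, 53.7 and 51.5 in VitD 1 to 3, 50.5, 48.5, 47.01 and 55.4 in pMT 1 to 4 and 65.5, 65.2, 47.7 and 45.1 in pMT/VitD 1 to 4. Psmd14 was highest in pMT/VitD 1 and 2, while pMT/VitD 3 and 4 were below both surgery libraries. Psmd6, Psmd8, Psmd11, Psmd12 and Psmd13 varied 1.18-fold (Psmd11) to 1.42-fold (Psmd6). Of the assembly chaperones, which leave the finished cap, Psmd5 and Psmd10 followed the mean of the others less closely than Psmd9 (r = 0.787). Psmd5 had 17.8 and 15.6 CPM in Control 1 and 2, 17.6 and 20.7 in Surgery 1 and 2, 22.4, 18.8 and 19.4 in VitD 1 to 3, 17.9, 18.2, 17.4 and 16.2 in pMT 1 to 4 and 16.2, 16.9, 15.1 and 18.00 in pMT/VitD 1 to 4. Psmd5 was lowest in pMT/VitD 3 and highest in VitD 1. Psmd9 had 11.9 and 9.83 CPM in Control 1 and 2, 9.63 and 9.87 in Surgery 1 and 2, 11.04, 9.33 and 10.5 in VitD 1 to 3, 10.5, 11.00, 10.4 and 12.7 in pMT 1 to 4 and 13.96, 11.7, 11.6 and 9.96 in pMT/VitD 1 to 4. Psmd9 was highest in pMT/VitD 1. Psmd10 varied 1.92-fold, the widest range of the 34, with pMT 1 lowest at 1.94 CPM.

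Surgery against Control asked what the operation changed. None of the 34 genes was called by edgeR, DESeq2 or limma voom (edgeR called 1.55% of all genes, and the shares of the other tools are not given here). With edgeR, 0 had an unadjusted p under 0.05, against 17% of all genes. Fold changes were above 0 for 8 of the 34 (48.6% of all genes were), with a median log2 fold change of -0.09 beside -0.01 over all genes. Psma7 had the largest difference in size (log2 fold change -0.28, SE 0.22, adjusted p = 0.56). Psmd5 had the smallest p (log2 fold change 0.20, SE 0.13, adjusted p = 0.47), with a positive fold change. A fit on these 4 libraries alone called 3 genes, Psma7, Psmb6 and Psmd4, all lower after surgery, beside 32.4% of all genes.

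pMT against Surgery compared mitochondrial transfer after the operation with no treatment. Injection and its buffer cannot be told apart from the mitochondria here, since Surgery had no treatment. None of the 34 was called by edgeR or DESeq2, against 1.94% of all genes with edgeR, and limma voom called 2, Psmd3 and Psmd4, against 37.7% of all genes. The study's methods do not say whether the p in its rule for changed genes is the adjusted one. Read as edgeR's exact test with a minimum fold of 2 and an unadjusted p below 0.05, it took none of the 34, none of which reached an unadjusted p under 0.05 in it, and 4.04% of all genes. By the quasi-likelihood test, 1 gene, Psmd3, had an unadjusted p under 0.05 (log2 fold change 0.25, SE 0.10, adjusted p = 0.26), against 14.3% of all genes. Fold changes were above 0 for 31 of the 34, beside 53% of all genes, with a median of 0.12 beside 0.02. The catalytic genes had 0.21 (Psmb6), 0.06 (Psmb5) and 0.01 (Psmb7) on the log2 scale. Without pMT 4 and pMT/VitD 4 none was called (share of all genes not given here) and the median was 0.01. With all 15 libraries, the values below 0 were those of Psmd14 (-0.04), Psmd5 (-0.14) and Psmd10 (-0.09).

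VitD against Surgery compared cholecalciferol alone with surgery and no treatment. Injection, and a surgery whose presence and timing are not stated for VitD, cannot be told apart from cholecalciferol here. No gene of the 34 was called by edgeR, DESeq2 or limma voom. With edgeR 0 had an unadjusted p under 0.05, and the background in edgeR was 0% called and 0.808% of all genes at that p. Fold changes were above 0 for 21 of 34 against 50.4% of all genes, and the median was 0.03 beside 0.00. The smallest p was that of Psma4 (log2 fold change 0.15, SE 0.20, adjusted p = 1).

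pMT/VitD against Surgery compared both agents together with no treatment, under the same limits. None of the 34 was called by edgeR, against 7.44% of all genes, and 5 had an unadjusted p under 0.05, against 24.8% of all genes. These were Psmd4 (log2 fold change 0.48, SE 0.16, adjusted p = 0.083), Psmb6 (log2 fold change 0.51, SE 0.19, adjusted p = 0.11), Psma7, Psmb2 and Psmd3. Fold changes were above 0 for 33 of 34 (all but Psmd5) against 49.8% of all genes, with a median of 0.24 beside 0.00. DESeq2 called 3 (Psmd3, Psmd4 and Psmb6) and limma voom 30, with 14.5% and 39.5% of all genes called. Without pMT/VitD 4, edgeR called 4, Psmd4, Psma7, Psmb6 and Psmb2, beside 12.8% of all genes. Without pMT 4 and pMT/VitD 4 it called 13, beside 20.1% of all genes, with the length trend removed 3 (Psmb6, Psmd4 and Psma7), beside 10.5%, and with both changes 7, beside 16.4%. All of these calls were higher in pMT/VitD.

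pMT/VitD against VitD compared cholecalciferol with and without pMT. Of the 34 genes, 5 were called and all were higher with pMT, or 14.7% against 21.9% of all genes called and 9.66% called higher. These shares lie on either side of that of the 34, so the number of calls does not set these genes apart from the rest. The ubiquitin receptor Psmd4 was 1.42-fold higher (129 ± 20.8 CPM, n = 4, against 90.9 ± 3.18 CPM, n = 3, log2 fold change 0.50, SE 0.14, adjusted p = 0.021). The catalytic subunit Psmb6 was 1.499-fold higher (174 ± 30.6 CPM against 116 ± 3.82 CPM, log2 fold change 0.58, SE 0.16, adjusted p = 0.021). Psmb2 (log2 fold change 0.46, SE 0.14, adjusted p = 0.028), Psma7 (log2 fold change 0.53, SE 0.17, adjusted p = 0.038) and Psmd3 (log2 fold change 0.26, SE 0.09, adjusted p = 0.043) were the others. All 4 pMT/VitD libraries lay above all 3 VitD libraries for 9 of the 34 genes, these 5 among them, and for 13% of all genes. For each of the 5, pMT/VitD 4 was the lowest of the 4.

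**Figure D4:**
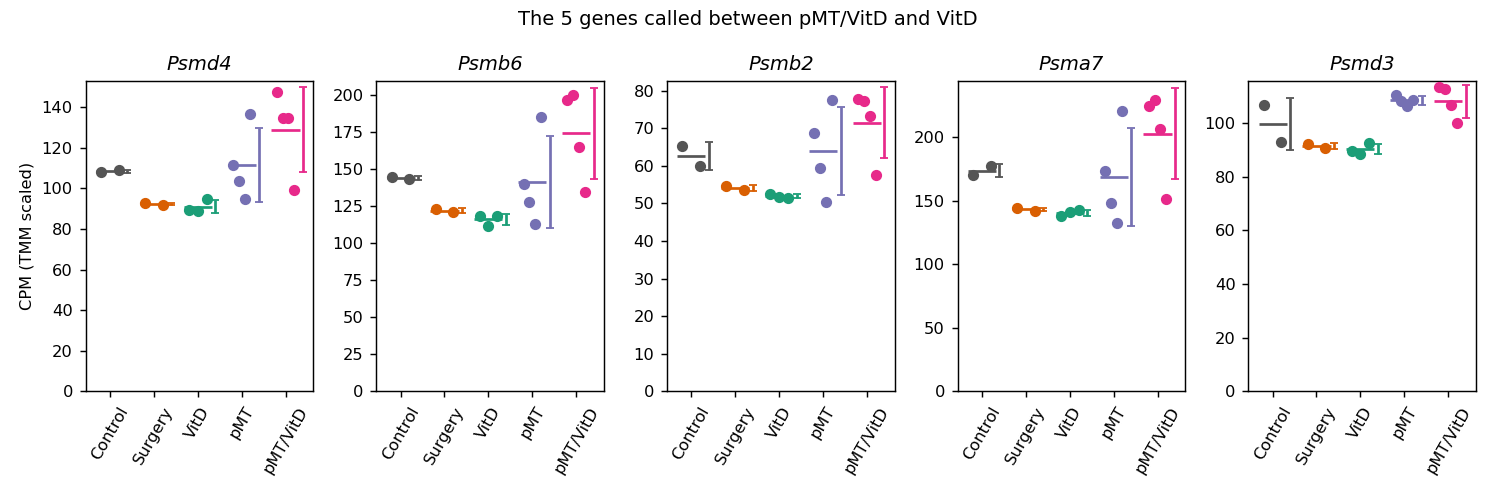
CPM of the 5 genes called between pMT/VitD and VitD in each library (points), with the group mean (line) and SD (bar), the vertical axes starting at 0. The VitD libraries sit close together below the pMT/VitD libraries, whose lowest point is replicate 4.

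At an unadjusted p under 0.05 there were 11 of the 34 in this comparison, against 35.6% of all genes. Fold changes were above 0 for 33 of 34, again all but Psmd5 (log2 fold change -0.29, SE 0.10, adjusted p = 0.0505), against 50% of all genes, and the median was 0.21 beside 0.00. By role, the median log2 fold change was 0.37 in the beta ring, 0.24 in the non-ATPase base, 0.20 in the ATPases, 0.16 in the alpha ring, 0.15 in the lid and 0.07 in the chaperones. The catalytic Psmb5 (log2 fold change 0.40, SE 0.15, adjusted p = 0.064) and Psmb7 (log2 fold change 0.33, SE 0.16, adjusted p = 0.15) and the deubiquitinase Psmd14 (log2 fold change 0.03, SE 0.13, adjusted p = 0.90) were not called.

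**Figure D5:**
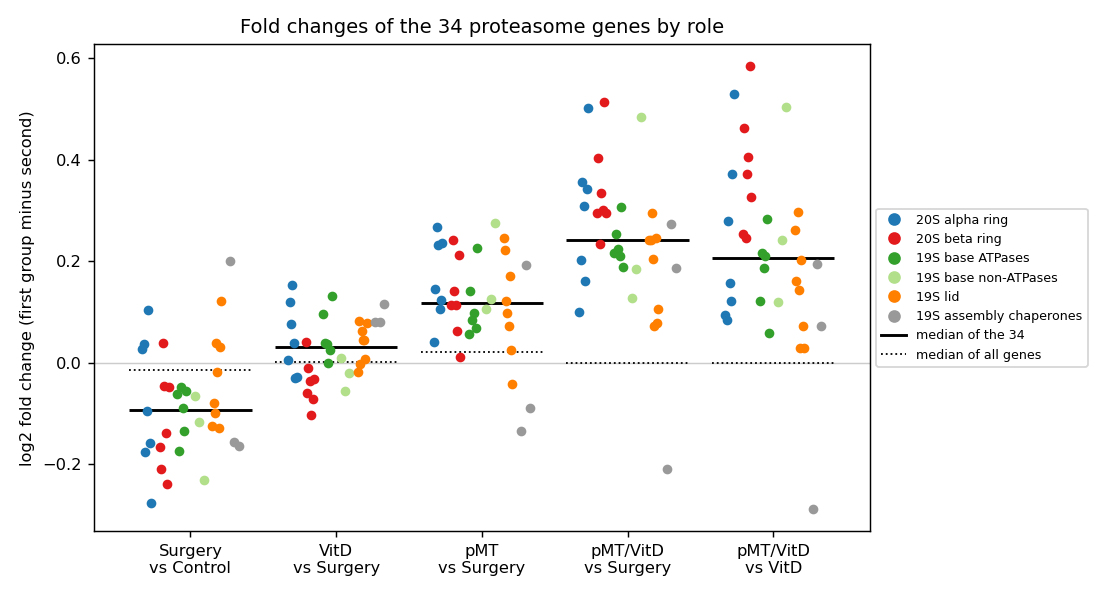
Log2 fold changes of the 34 genes (points, coloured by role) in 5 comparisons, with the median of the 34 (solid line) and of all genes tested (dotted line). In the comparisons of pMT/VitD the medians of the 34 are 0.24 and 0.21, with Psmd5 the lone point below 0.

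The number of calls between pMT/VitD and VitD changed with the libraries left out and with the processing. Without pMT/VitD 1, pMT/VitD 2, VitD 1 or VitD 2 none of the 34 was called, without pMT/VitD 3 or VitD 3 there were 2 (Psmb6 and Psmd4), beside 18.8% and 22.5% of all genes, and without pMT/VitD 4 there were 10, beside 26.5%. For the fits with none called the share of all genes is not given here, so their 0 cannot be set against it. Without pMT 4 and pMT/VitD 4 there were 17, beside 32% of all genes, 16 higher and Psmd5 lower. With the length trend removed there were 7, beside 25.5% of all genes, 6 higher and Psmd5 lower, and the 5 genes were among them. With both changes there were 10, beside 29.2%, and in the 5-group test 12, 5 and 6 in turn, beside 29.8%, 16% and 24% of all genes. DESeq2 called 10 (28.1% of all genes) and limma voom 30 (48.9%) between pMT/VitD and VitD. Over the 34 genes, the correlation between log2 gene length and log2 fold change was -0.41 here and -0.67 between pMT/VitD and pMT, given as a description.

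Directions also depended on scaling, and TMM factors ran from 0.849 to 1.20. Scaled by total counts alone, the median of all genes shifted to -0.34 between pMT/VitD and VitD, and that of the 34 genes to -0.15. Between pMT/VitD and Surgery the values were -0.32 for all genes and -0.09 for the 34, and between Surgery and Control 0.25 and 0.17. The 34 genes kept their place relative to all genes in these 3 comparisons, above in both with pMT/VitD and below in Surgery against Control, while the sign of their own median turned. As a share of all counts, the 34 genes took 0.427%, 0.387% and 0.371% in VitD 1 to 3 and 0.39%, 0.39%, 0.354% and 0.344% in pMT/VitD 1 to 4. That share was 0.385% to 0.387% in Surgery, above the 0.340% to 0.349% in Control, and 0.351% to 0.402% in pMT. The summed TPM of the 34 genes was 3685 to 3752 in Control and 4259 to 4299 in Surgery. It was 4142 to 4537 in VitD, 3734 to 4346 in pMT and 3698 to 3975 in pMT/VitD. On these 2 measures Surgery was thus above Control. By summed TPM every pMT/VitD library lay below every VitD library, opposite to the direction of the 5 called genes. Their shares of all counts overlapped. Under scaling by total counts Psmd3 was lower in pMT/VitD than in VitD, and the other 4 of the 5 genes were higher without passing the test.

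pMT/VitD against pMT compared pMT with and without cholecalciferol. None of the 34 was called by edgeR or DESeq2, and 0 had an unadjusted p under 0.05, where the background was 0% and 10.1% of all genes. Fold changes were above 0 for 31 of 34, beside 46.2% of all genes, with a median of 0.11 beside -0.02. Psmb6 had the smallest p (log2 fold change 0.30, SE 0.15, adjusted p = 0.50). Without pMT 4 and pMT/VitD 4, 13 were called, all higher in pMT/VitD, beside 18.3% of all genes, and with the length trend removed as well none was. limma voom called 25, beside 38.5% of all genes.

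Whether the difference that pMT made was itself different with cholecalciferol was tested as (pMT/VitD minus VitD) minus (pMT minus Surgery). None of the 34 was called by edgeR or DESeq2 and 0 had an unadjusted p under 0.05, against 0% and 5.16% of all genes. The smallest p was that of Psmb5 (log2 fold change 0.34, SE 0.22, adjusted p = 0.90). limma voom called 13, beside 31.5% of all genes. The calls present with cholecalciferol and absent without it are therefore not shown to differ by edgeR or DESeq2.

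Against Control, none of the 34 was called by edgeR or DESeq2 in any of the 3 treated groups. With pMT, 0 had an unadjusted p under 0.05 and 24 of 34 fold changes were above 0 (all genes 0% called, 3.07% at the unadjusted p and 50.6% above 0). The median was 0.04, limma voom called none (share of all genes not given here), and Psma5 had the smallest p (log2 fold change 0.21, SE 0.14, adjusted p = 1). With pMT/VitD, 0 had an unadjusted p under 0.05 and 33 of 34 were above 0 (all genes 0%, 2.88% and 48.3%), with a median of 0.17 and again Psma5 first (log2 fold change 0.27, SE 0.14, adjusted p = 0.91). limma voom called 9, all higher, beside 10.8% of all genes. With VitD, 1 gene, Psmd5, had an unadjusted p under 0.05 (log2 fold change 0.28, SE 0.12, adjusted p = 0.16), and 13 of 34 were above 0 (all genes 8.67%, 25.8% and 48.8%), with a median of -0.08. limma voom called 6, all lower in VitD, beside 37.5% of all genes, and without pMT 4 and pMT/VitD 4 and with the length trend removed edgeR called 3 (Psmb6, Psma7 and Psmd4), all lower, beside 18.7%. Without pMT 4 and pMT/VitD 4 alone, none of the 34 was called in any comparison with Control, between VitD and Surgery or in the difference of differences. These comparisons and those above share their control, surgery and treated libraries and are not independent.

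Genes around the proteasome were followed by list. Of the immunoproteasome subunits, which replace the catalytic subunits in immune cells and under interferon, none of 3 was called in any comparison. Psmb8 was at 7.53 ± 0.0639 CPM in Control and 9.29 ± 0.134 CPM in Surgery (n = 2 each), Psmb9 at 6.46 ± 0.484 CPM and 9.15 ± 0.152 CPM, and Psmb10 at 11.7 ± 2.36 CPM and 15.04 ± 0.0669 CPM. Their log2 fold changes after surgery were 0.30, 0.50 and 0.37, opposite in sign to those of Psmb5 (-0.14), Psmb6 (-0.24) and Psmb7 (-0.05), whose places they take, and no value passed the test. Macrophage markers were higher after surgery in the same libraries, with 3 of 10 called (8 of 10 without pMT 4 and pMT/VitD 4). Summed macrophage markers averaged 315 CPM in Control, 603 in Surgery, 638 in VitD, 315 in pMT and 279 in pMT/VitD. The summed immunoproteasome genes averaged 25.7, 33.5, 31.7, 30.1 and 31.5 CPM in the same order, with 20.2 to 39.9 among the pMT libraries. The part of macrophages in the immunoproteasome values was not tested.

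Among 6 other subunits and bound enzymes of the 26S complex, Adrm1, a further ubiquitin receptor of the base, was called in the 5-group test, with 83.4 ± 5.46 CPM in Control, 66.5 ± 2.29 CPM in Surgery, 62.7 ± 3.34 CPM in VitD (n = 3), 81.5 ± 7.298 CPM in pMT (n = 4) and 94.3 ± 8.68 CPM in pMT/VitD. It was higher in pMT/VitD than in Surgery (log2 fold change 0.50, SE 0.12, adjusted p = 0.022) and than in VitD (log2 fold change 0.59, SE 0.10, adjusted p = 0.0018) and lower in VitD than in Control (log2 fold change -0.41, SE 0.12, adjusted p = 0.0483). No other gene of this list was called. Of 5 assembly factors, the chaperone Psmg3 was higher in pMT/VitD than in VitD (log2 fold change 0.36, SE 0.11, adjusted p = 0.027). Pomp, which matures the core, was at 39.3 ± 3.503 CPM in VitD and 53.6 ± 12.1 CPM in pMT/VitD and was not called (log2 fold change 0.45, SE 0.20, adjusted p = 0.13). Without pMT 4 and pMT/VitD 4, Pomp was called in the 5-group test (adjusted p = 0.0042), beside 29.8% of all genes. Of 5 activators and inhibitors, Psmf1, which binds and inhibits the core, was called in the 5-group test and was higher in pMT/VitD than in VitD (log2 fold change 0.39, SE 0.08, adjusted p = 0.0049). The activator Psme4 was not called with all libraries, with 179 ± 15.8 CPM in Control, 137 ± 5.44 CPM in Surgery and 178 ± 10.03 CPM in pMT. Without pMT 4 and pMT/VitD 4 the 5-group test called it (adjusted p = 0.049).

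Of 10 genes of the pathway that controls proteasome transcription, 2 were called in the 5-group test. Nfe2l2, which drives antioxidant genes, was lower in pMT/VitD than in VitD (log2 fold change -0.48, SE 0.10, adjusted p = 0.0051), and Keap1, which targets the Nfe2l2 protein for degradation, was higher (log2 fold change 0.40, SE 0.08, adjusted p = 0.0038). Keap1 was also higher in pMT/VitD than in Surgery (log2 fold change 0.32, SE 0.09, adjusted p = 0.0491). Nfe2l1 itself was at 254 ± 3.13 CPM in Control, 292 ± 6.88 CPM in Surgery, 285 ± 17.97 CPM in VitD, 236 ± 50.6 CPM in pMT and 237 ± 45.8 CPM in pMT/VitD. It was not called with all libraries (pMT/VitD against VitD, log2 fold change -0.27, SE 0.17, adjusted p = 0.28). Without pMT 4 and pMT/VitD 4 the 5-group test called Nfe2l1 (adjusted p = 0.031). It was then called lower in pMT/VitD than in Surgery (log2 fold change -0.45, SE 0.11, adjusted p = 0.015). It was also called lower than in VitD (log2 fold change -0.42, SE 0.10, adjusted p = 0.0075). Among the ubiquitin genes and activating enzymes, with all libraries, Ubb, which encodes polyubiquitin, was higher in pMT/VitD than in VitD (log2 fold change 0.41, SE 0.12, adjusted p = 0.031), and the activating enzyme Uba6 was lower (log2 fold change -0.66, SE 0.12, adjusted p = 0.0024). Uba6 was also called lower in pMT/VitD than in Surgery (log2 fold change -0.48, SE 0.14, adjusted p = 0.0471).

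Among the shuttle factors and p97 cofactors, which bring ubiquitinated proteins to the cap, Faf1 was higher in pMT/VitD than in VitD (log2 fold change 0.60, SE 0.13, adjusted p = 0.0052) and than in Surgery (log2 fold change 0.61, SE 0.15, adjusted p = 0.025). Of 7 ubiquitin ligases of muscle, Fbxo30, a ligase induced in atrophy, was called in the direction opposite to that of the 5 proteasome genes. No other ligase of this list was called with all libraries. Between pMT/VitD and VitD, 5 of the 7 had fold changes above 0 and 2 below, so Fbxo30 does not stand for the list. Fbxo30 was at 15.9 ± 2.61 CPM in Control, 22.8 ± 0.127 CPM in Surgery, 26.1 ± 2.77 CPM in VitD, 17.3 ± 1.39 CPM in pMT and 14.05 ± 1.36 CPM in pMT/VitD. It was lower in pMT/VitD than in VitD (log2 fold change -0.89, SE 0.11, adjusted p = 0.00032) and than in Surgery (log2 fold change -0.70, SE 0.12, adjusted p = 0.0057), and higher in VitD than in Control (log2 fold change 0.71, SE 0.14, adjusted p = 0.0097). With all 15 libraries no gene of these lists was called between pMT and Surgery, Surgery and Control or VitD and Surgery. Every call made with all 15 libraries and named from these lists stood in the same direction without pMT 4 and pMT/VitD 4. Fbxo30 was then called between Surgery and Control too (log2 fold change 0.55, SE 0.14, adjusted p = 0.0478). Between pMT/VitD and VitD the calls then numbered 3 of the 6 other subunits and bound enzymes, 4 of the 5 assembly factors, 4 of the 5 activators and inhibitors and 4 of the 10 genes of the transcription pathway, from 1, 1, 1 and 2 with all libraries. Of the bound enzymes 2 were higher and 1 lower, and of the transcription pathway 1 was higher and 3 lower. The assembly factors, activators and inhibitors called were all higher. Calls stayed at 1 of 7 ligases, lower, and 0 of 3 immunoproteasome subunits. Counts for the ubiquitin and shuttle lists are not given here. Beside these calls stands the share of all genes called, given above for each comparison. For comparisons with Control without pMT 4 and pMT/VitD 4 that share is not given here.

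The genes whose levels ran closest to the mean of the 34 were ranked among 5335 genes with a mean of at least 4 log2 CPM. The first 5 by Pearson correlation over the 15 libraries were Fh, a Krebs cycle enzyme (r = 0.99), Ndufa5 and Ndufb9, subunits of respiratory complex I (0.99 and 0.98), Minos1, of the inner mitochondrial membrane (0.99), and Slirp, which binds mitochondrial RNA (0.98). All are nuclear genes of mitochondrial proteins. With the length trend removed, their correlations with the 34 genes were 0.93, 0.95, 0.94, 0.95 and 0.83. The percentage of counts on mitochondrial genome genes had r = 0.78 with the mean of the 34. These are descriptions of 15 libraries that share scaling, length trend and group.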

How the data were processed

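Per the paper and the submitters' notes, the authors trimmed paired-end reads with Trimmomatic 0.38, aligned them to rn6 with HISAT2 2.1.0 and quantified RefSeq genes with StringTie 2.1.3b. The deposited read counts per gene carry no normalization and served every test, while TPM values, scaled by the authors per length and library, served for levels between genes and, as counts over TPM, for relative gene length. FPKM columns were not used here. How strand and reads with several alignments were handled is not given in the sources used here.

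Groups came from the sample titles. Counts were tested in R 4.3.3 with edgeR 4.0.16 (filterByExpr, TMM, robust glmQLFit on all 15 libraries, group as the only term), adjusted by Benjamini-Hochberg over 17201 genes. The rule for changed genes used edgeR's exactTest on Surgery and pMT. The length trend is a lowess curve (span 0.5) of each library's log2 CPM deviations (prior count 2) on log2 length. The alternatives were DESeq2 1.42.0, limma 3.58.1 voom with quality weights, RLE factors or library size, other count filters, only the 2 groups compared, a replicate block, removal of the length trend and leaving out libraries. The scripts were tested on simulated counts.

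The genes and lists were chosen with earlier results of these data known. Library values are given for the 2 genes per role with the smallest p in the 5-group test, the gene with the smallest p in each comparison, the catalytic genes, Psmd4 and Psmd14. From the lists, called genes and Psmb8, Psmb9, Psmb10, Pomp, Psme4 and Nfe2l1 were named. Of the listed genes, Paaf1 was not matched. Results for 2 listed genes are not reported here. Same-numbered libraries of different groups did not deviate together (7 of 24 pairs had a correlation over 0.1, range -0.89 to 0.39), so numbers were not used as pairs. No libraries were identical.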

Additional observations from a re-analysis of the deposited data

How the results depend on the processing

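Calls between pMT/VitD and VitD numbered 5 and remained 5 with RLE factors, beside 22.3% of all genes, with 6 under a minimum of 10 counts in every library (26.9%), 3 without a count filter (13.1%), 3 with library size scaling (33.5%, Psmd5, Psmd13 and Psmd11, none of the 5), 1 with only the 2 groups in the fit (11.3%), 10 with DESeq2, 30 with limma voom, 7 with the length trend removed, 17 without pMT 4 and pMT/VitD 4 and 10 with both changes, an alternative chosen after seeing the data. The replicate block gave 0 (share of all genes not given here), and 5 with the length trend removed as well (19.8%). Leaving out single replicates gave 0 to 10 calls in this comparison, 0 to 4 between pMT/VitD and Surgery, and 0 to 2 in the 5-group test. The 5-group test gave 0 calls, and 1 with library size (20.8%), 4 with DESeq2, 28 with limma voom, 5 with the length trend removed, 12 without pMT 4 and pMT/VitD 4 and 6 with both changes.

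From 0 calls, pMT/VitD against Surgery went to 1 with library size (18.9%), 3 with DESeq2, 30 with limma voom, 3 with the length trend removed, 4 without pMT/VitD 4, 13 without pMT 4 and pMT/VitD 4 and 7 with both changes. pMT/VitD against pMT went to 25 with limma voom and 13 without pMT 4 and pMT/VitD 4. VitD against Control went to 4 with library size (16.2%), 6 with limma voom and 3 with both changes. Surgery against Control went to 3 with only the 2 groups. pMT against Surgery went to 2, pMT/VitD against Control to 9 and the difference of differences to 13 with limma voom. All other alternatives kept 0 calls in these comparisons, as they did for pMT against Control and VitD against Surgery. The cause of these changes was not tested.

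With library size scaling the median log2 fold change of the 34 genes was 0.17 for Surgery against Control, -0.0405 for pMT against Surgery, -0.0916 for pMT/VitD against Surgery, 0.21 for VitD against Control, -0.0676 for pMT/VitD against pMT, -0.15 for pMT/VitD against VitD and -0.13 for the difference of differences, and Psmd3 turned to -0.0869 between pMT/VitD and VitD. This scaling also moved the median of all genes. For pMT/VitD against pMT and the difference of differences the median was 0.29 and 0.23 with limma voom and 0.30 and 0.22 without pMT 4 and pMT/VitD 4. Groups of 2 libraries limit every comparison with Control or Surgery.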
